A study of Mus musculus with 2 samples.

Results

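The genes described here are 10 genes of the basement membrane: the type IV collagen chains Col4a1 and Col4a2, the laminin chains Lama1, Lama5, Lamb1 and Lamc1, the linker nidogen (Nid1), the proteoglycan perlecan (Hspg2), the collagen-binding glycoprotein Sparc and the collagen chaperone Serpinh1. They were taken by name, after the 25749 Ensembl gene identifiers of the files had been matched to mouse symbols, and all 10 were found once each. RNA-seq measured them in the mouse embryonic stem cell line E14.1, with AHCY either wild type (WT) or T136A, a form that has alanine in place of a threonine. AHCY breaks down S-adenosylhomocysteine, the by-product of methylation reactions. Each genotype had 1 library, and how the T136A cells were made, whether they are a single clone, and how the cells were grown are not stated in the sources used. With 1 library per genotype there is no replicate check: no test was made, and a level called higher or lower is so in this pair of libraries.

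A basement membrane is a thin sheet of matrix under epithelia, and it is the first matrix an embryo makes. Laminin, a trimer of an alpha, a beta and a gamma chain, assembles first on the cell surface, where integrins and dystroglycan hold it. Type IV collagen, whose common form joins alpha-1 and alpha-2 chains in a trimer, forms a second network, and nidogen and perlecan tie the networks together. In the early mouse embryo the primitive endoderm and its parietal descendants are rich sources of these proteins, and epiblast cells respond to them.

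The type IV collagen genes were higher in T136A, while the laminin gamma chain gene Lamc1 and the nidogen gene Nid1 were lower. Col4a1 was 2.74-fold higher (95% counting interval 2.46 to 3.05) and Col4a2 1.89-fold higher (1.66 to 2.16). Lamc1 was 1.42-fold lower (1.37 to 1.46) and Nid1 1.32-fold lower (1.25 to 1.40). The other 6 genes were within 1.3-fold. Summed over the 10 genes, the level was almost the same, at 260.02 RPKM in WT against 258 RPKM in T136A. RPKM values are read numbers scaled to the length of a gene's merged annotated exons and to the library's total. A comparison of levels between genes rests on that length, which need not be the length of the transcripts made. The counting intervals do not cover this. The counting intervals are exact binomial intervals from the number of reads and cover counting error only; they say nothing about variation between cultures. In bulk RNA, a change in the share of cells that make a transcript and a change in the amount per cell cannot be told apart.

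Among the 10 genes, 1 (Col4a1) was at least 2-fold higher in T136A and 0 were at least 2-fold lower, on a log2 scale with 1 RPKM added to both values. For comparison, 12320 genes reached 1 RPKM in either library (called expressed genes from here on), and 3.13% of them passed the 2-fold line upwards in T136A and 3.10% downwards. With the libraries scaled to their upper quartiles, the whole-series counts of 386 higher and 382 lower became 588 and 276. The median log2 ratio of the 10 genes was 0.10, against -0.03 for all genes, and 5 of the 10 were above 0, against 47.4% of all genes. The counting interval lay above 1 for 5 members (50%) and below 1 for 4 (40%); among the 10771 genes whose read numbers could be recovered in both libraries it did so for 31.7% and 36.9%. An interval apart from 1 is therefore common at this depth. All 10 genes exceeded 1 RPKM in both libraries, so none entered through the library in which it was high.

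The libraries had implied totals of 17506154 reads (WT) and 18396840 reads (T136A), so the members rest on between 332 and 7890 reads per library. Ahcy was at 52.9 RPKM in WT against 56.6 RPKM in T136A, which does not check the labels, since a changed codon cannot be seen in gene-level values. Markers of embryonic stem cells were high in both libraries, with Nanog at 673 RPKM in WT against 517 RPKM in T136A, Sox2 at 343 against 294 RPKM and Pou5f1 at 271 against 223 RPKM.

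**Figure D1:**
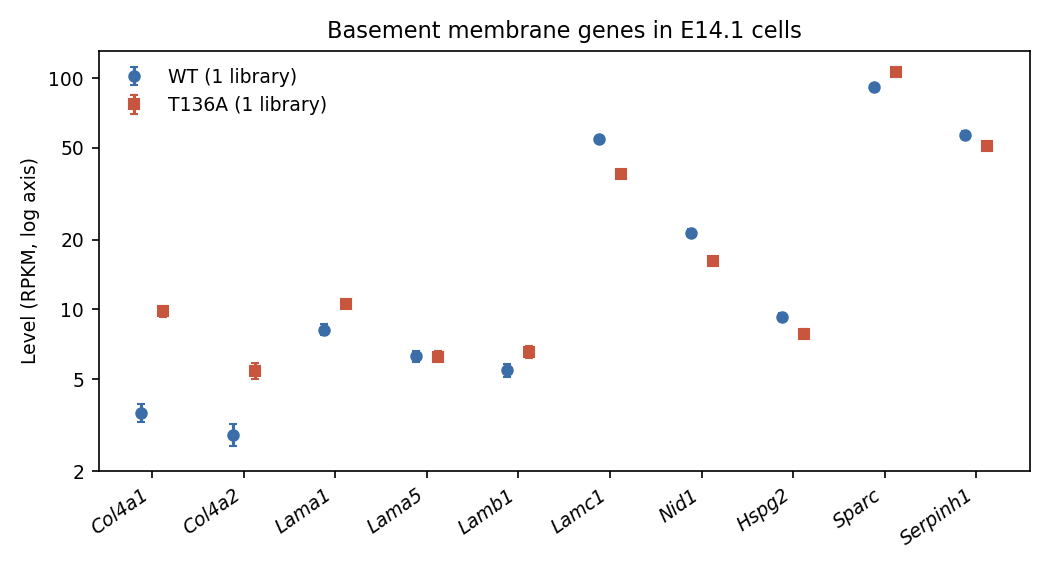
Level of each of the 10 genes (RPKM, log axis) in the WT library (circles) and the T136A library (squares), with exact 95% Poisson intervals of the read number as bars, which cover counting error only. Col4a1 and Col4a2 show the widest gaps between the libraries, and the most abundant genes (Sparc, Serpinh1 and Lamc1) stay the top 3 in both.

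Col4a1 (ENSMUSG00000031502) and Col4a2 (ENSMUSG00000031503) encode the chains of the most widespread type IV collagen, which gives the basement membrane its tensile strength. They lie head to head on mouse chromosome 8, at chr8:11198423-11312826 on the minus strand and chr8:11312805-11449287 on the plus strand (GRCm38, GENCODE M21), so that their first exons overlap by 22 bases. RefSeq's Col4a1 gene reaches further, to base 11312889, and counted from there the overlap is 85 bases. The overlap and the sites of a motif near each start are shown because this pair was higher together; they come from RefSeq's GRCm38.p6 start sites and are written on the strand named, with the motif in capitals (a GC box, GGGCGG, in the first, and CCAAT boxes, read as ATTGG on the opposite strand, in the others).
Overlap of the first exons, chr8:11312805-11312826, plus strand: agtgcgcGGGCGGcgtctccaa
Before the Col4a2 start, chr8:11312763-11312787, plus strand: gaggagctccCCAATttgttggcgc
Before the Col4a1 start, chr8:11312957-11312981, minus strand: cttgcccgggATTGGcgagccaagg

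The GC box in the overlap lies inside the first exon of each gene. The CCAAT box of Col4a2 begins 32 bases before its start, within the first exon of Col4a1, and that of Col4a1 begins 145 bases before its start (82 before the RefSeq gene's end), within the first exon of Col4a2. Start-site windows (250 bases before to 50 after) were given for 8 of the 10 genes, not for Lama1 and Lamc1. On either strand, CCAAT was found in 4 of these 8 windows (Col4a1, Col4a2, Lamb1 and Nid1), against 37.4% of all 32851 windows, and GGGCGG in 7 of 8, all but that of Sparc, against 35.7%. The TATA box TATAAA was in 0 of 8, against 13.6% of all windows. The CRE core TGACGT, which ATF and CREB factors can bind, was in the Lama5 window alone, against 7.51% of all windows. The ER stress element, a CCAAT box spaced from a second short motif, was in 0 of 8, against 0.119%. The windows of the collagen pair held 74% and 73.7% G and C, against a median of 52.7% over all windows. The windows of the other members held from 55.3% (Sparc) to 72.7% (Lama5), also above that median. The Sparc window, chr11:55420031-55420330 on the minus strand, lies inside the GENCODE gene. It does not cover that gene's start at base 55423183. GGGCGG is made of G and C alone, and the 35.7% is not matched for this. The only GC box of the Col4a1 window is the one in the overlap, which was counted for Col4a2 as well. A match is a match of letters only, and whether any factor binds there was not measured.

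Col4a1 stood at 3.57 RPKM in WT (467 reads) against 9.80 RPKM in T136A (1345 reads). Col4a2 stood at 2.87 RPKM in WT (332 reads) against 5.42 RPKM in T136A (660 reads). For each gene the T136A level lay above the upper bound of the WT counting interval, which ended at 3.91 RPKM for Col4a1 and 3.19 RPKM for Col4a2. Their log2 ratios of 1.24 and 0.73 exceeded those of 98.3% and 93.2% of the expressed genes. With 5 RPKM added in place of 1, Col4a1 also fell short of the 2-fold line, at a log2 ratio of 0.79. In WT, Col4a1 was 1.25 times as abundant as Col4a2 (1.08 to 1.44), and in T136A 1.81 times (1.65 to 1.99). The fold of Col4a1 was thus 1.45 times that of Col4a2, with an exact conditional interval of 1.22 to 1.72, counting error only. Reads from the shared bases cannot be assigned to a gene without a strand rule, which the sources used here do not give.

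The other type IV collagen genes were low. Col4a5 was at 0.238 RPKM in WT (28 reads) against 0.243 RPKM in T136A (30 reads), and Col4a6 at 0.0716 RPKM (10 reads) and 0.0614 RPKM (9 reads). At the detection limit, Col4a3 had 1 read in WT and was listed at 0 in T136A, and Col4a4 had 1 read in each library. A count of 0 allows up to 3 reads. Type IV collagen message in these cells was therefore nearly all of the alpha-1 and alpha-2 kind, with a summed level of 6.44 RPKM in WT against 15.2 RPKM in T136A, which is 2.48% and 5.89% of the summed level of the 10 genes.

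**Figure D2:**
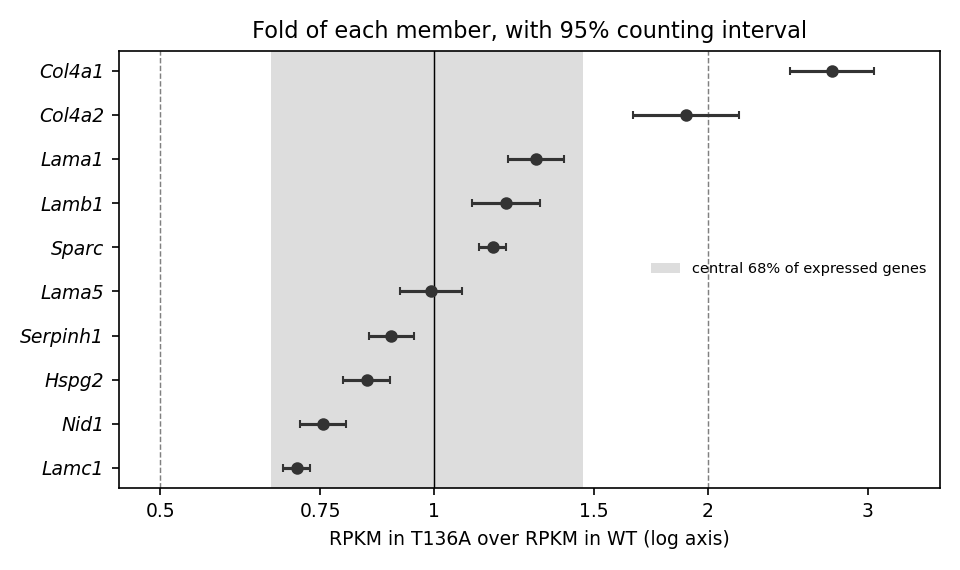
Fold of each of the 10 genes (RPKM in T136A over RPKM in WT, log axis), with exact 95% counting intervals as bars; dashed lines mark 2-fold, and the grey band holds the central 68% of expressed genes. Col4a1 (2.74) and Col4a2 (1.89) lie outside the band of 0.662 to 1.46, and the other 8 genes lie inside it.

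Laminin chain genes went in different directions. Lama1 (ENSMUSG00000032796, chr17:67697259-67822647, plus strand) encodes the alpha chain of laminin-111, the first laminin of the embryo. It was at 8.16 RPKM in WT against 10.6 RPKM in T136A, 1.30-fold higher (1.21 to 1.39). The 9681 bases of GENCODE M21 did not give whole reads for it. Of exon lengths from 300 to 40000 bases, 4 did, namely 9518 and its multiples. The smallest, closest to the annotated length, was used and gave 1360 and 1851 reads, on which the interval rests. Lama5 (ENSMUSG00000015647, chr2:180176373-180225859, minus strand), the alpha chain of laminin-511, was at 6.29 RPKM in WT against 6.24 RPKM in T136A. Its fold of 0.993 had a counting interval of 0.918 to 1.07, which spans 1, and its log2 ratio of -0.01 turned to 0.12 with upper-quartile scaling. The balance of the alpha chains differed between the libraries: Lama1 was 1.30 times as abundant as Lama5 in WT (1.20 to 1.40) and 1.69 times in T136A (1.58 to 1.82).

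Lamb1 (ENSMUSG00000002900, chr12:31265234-31329644, plus strand) encodes the beta chain shared by laminin-111 and laminin-511. It was at 5.45 RPKM in WT (947 reads) against 6.54 RPKM in T136A (1193 reads), 1.20-fold higher (1.10 to 1.31). Its partner Lamc1 (ENSMUSG00000026478, chr1:153218922-153332786, minus strand), the gamma chain of nearly all laminins, went the other way. It was at 54.5 RPKM in WT (7890 reads) against 38.5 RPKM in T136A (5857 reads). Lamc1 was far more abundant than its partner chains: 9.99 times Lamb1 in WT (9.34 to 10.7) and 5.89 times in T136A (5.53 to 6.27). Against Lama1 the excess was 6.68 times in WT (6.30 to 7.08) and 3.64 times in T136A (3.45 to 3.84). Lamc1 was the member with the lowest log2 ratio, -0.49, and 15.2% of all genes had a lower one.

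Among the other laminin chain genes analysed here, Lamb2, the beta chain that can replace Lamb1, was at 6.97 RPKM in WT (742 reads) against 3.49 RPKM in T136A (390 reads), lower by a factor whose counting interval ran from 1.77 to 2.27 (log2 ratio -0.83). In RPKM, Lamb2 was thus above Lamb1 in WT and below it in T136A. In reads, Lamb1 was above Lamb2 in both libraries (947 and 1193 reads), so the order in WT rests on the exon lengths used. Lama3 was at 0.574 and 0.885 RPKM and Lamb3 at 0.708 and 0.263 RPKM. Lama4 was at 0.199 and 0.320 RPKM, and Lama2 and Lamc3 rested on 5 reads or fewer per library. Summed over the beta chain genes, the level was 13.1 RPKM in WT against 10.3 RPKM in T136A; over the alpha chain genes it was 15.2 against 18.0 RPKM.

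**Figure D3:**
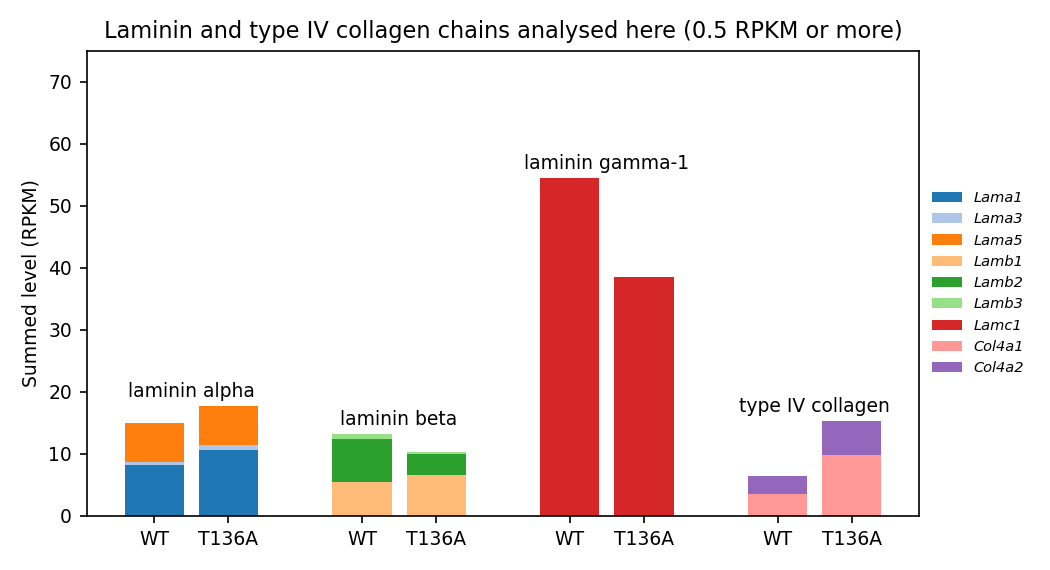
Level (RPKM) of the laminin and type IV collagen chain genes analysed here that reach 0.5 RPKM in either library, stacked by gene within each kind of chain. Lamc1, the gamma-1 chain (54.5 and 38.5 RPKM), exceeds the sum of each other kind of chain, taken one kind at a time, in both libraries, and the collagen bar is higher in T136A.

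The linker genes of the group, Nid1 and Hspg2, were lower in T136A. Nid1 (ENSMUSG00000005397, chr13:13437551-13512269, plus strand), which binds the laminin gamma-1 chain and type IV collagen, was at 21.3 RPKM in WT (2594 reads) against 16.1 RPKM in T136A (2060 reads). Nid1 and Lamc1 differed by similar factors: Lamc1 was 2.55 times as abundant as Nid1 in WT (2.44 to 2.67) and 2.39 times in T136A (2.27 to 2.51). The ratio of their folds was 0.935, with an interval of 0.874 to 1.00. The related gene Nid2, outside the group, was at 41.4 RPKM in WT against 48.6 RPKM in T136A, above Nid1 in both libraries. Hspg2 (ENSMUSG00000028763, chr4:137468769-137570630, plus strand), which encodes perlecan, a large protein that carries heparan sulfate chains, was at 9.31 RPKM in WT (2332 reads) against 7.85 RPKM in T136A (2066 reads). That is 1.19-fold lower (1.12 to 1.26). With upper-quartile scaling the log2 ratio of Hspg2 went from -0.22 to -0.083, and that of Nid1 from -0.38 to -0.24.

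The collagen-handling genes were the most abundant of the group. Sparc (ENSMUSG00000018593, chr11:55394500-55423183, minus strand), a secreted protein that binds collagen and is made in quantity by parietal endoderm, was at 91.7 RPKM in WT (6078 reads) against 106 RPKM in T136A (7413 reads), 1.16-fold higher (1.12 to 1.20). Serpinh1 (ENSMUSG00000070436, chr7:99345376-99353239, minus strand) encodes HSP47, which holds the collagen triple helix together in the endoplasmic reticulum. It was at 56.9 RPKM in WT (2433 reads) against 51.1 RPKM in T136A (2295 reads), 1.11-fold lower (1.05 to 1.18). With upper-quartile scaling its log2 ratio went from -0.15 to -0.0016, so that no difference was left.

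Within each library the levels spanned 32.0-fold in WT and 19.6-fold in T136A, from Sparc at the top to Col4a2 at the bottom. In WT the order was Sparc, Serpinh1, Lamc1, Nid1, Hspg2, Lama1, Lama5, Lamb1, Col4a1 and Col4a2, and only the intervals of Serpinh1 and Lamc1 overlapped among neighbours. In T136A it was Sparc, Serpinh1, Lamc1, Nid1, Lama1, Col4a1, Hspg2, Lamb1, Lama5 and Col4a2. There the intervals of Lama1 and Col4a1 overlapped, as did those of Lamb1 and Lama5. Col4a1 thus moved from the ninth place to the sixth. Sparc, Serpinh1 and Lamc1 together made up 78.1% of the summed level in WT and 75.8% in T136A. The 10 genes lie on 9 chromosomes.

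Other components of basement membranes showed no shared direction. Of 32 listed genes 30 were found and 8 were expressed, with 0 at least 2-fold apart and a median log2 ratio of 0.04. Col18a1, the core of collagen XVIII, was at 52.4 RPKM in WT against 30.5 RPKM in T136A. Agrin, Agrn, a heparan sulfate proteoglycan like perlecan, was at 11.8 and 6.27 RPKM, and Tgfbi, a collagen-binding matrix protein, at 10.9 and 6.07 RPKM. In the other direction Smoc1, a calcium-binding relative of Sparc, was at 5.54 RPKM in WT against 10.5 RPKM in T136A. Spock2 (3.63 and 4.69 RPKM) and Egfl6 (0.718 and 1.15 RPKM) completed the upper end; Egfl6 passed the minimum through T136A alone.

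Receptors that bind these proteins split as well. Of 27 listed genes 23 reached 1 RPKM, 2 were at least 2-fold higher, 1 was at least 2-fold lower, and the median log2 ratio was -0.09. The adhesion molecule Mcam, which can bind laminin-411, was at 9.55 RPKM in WT against 22.7 RPKM in T136A. Syndecan-1, Sdc1, a heparan sulfate proteoglycan of the cell surface, was at 12.3 and 28.5 RPKM. The collagen receptor Ddr2 was at 0.308 and 1.31 RPKM, and passed the minimum through T136A alone. The fibronectin receptor chain Itga5 was at 31.9 RPKM in WT against 13.2 RPKM in T136A, and the laminin receptor chain Itga6 at 17.8 and 11.0 RPKM. Pomt2, which starts the sugar chain of dystroglycan, was at 3.40 and 2.24 RPKM. The common integrin chain Itgb1 was at 35.1 and 30.1 RPKM, and dystroglycan, Dag1, at 26.0 and 22.8 RPKM; both were chosen after their values were seen.

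Among 35 genes of collagen folding, modification and export, 31 reached 1 RPKM, with a median log2 ratio of 0.01. Of these, 1 was at least 2-fold higher and 1 at least 2-fold lower. The higher gene was Hspa5, which encodes BiP, the general chaperone of the endoplasmic reticulum, at 41.6 RPKM in WT against 157 RPKM in T136A. The disulfide isomerase Pdia6 was at 64.4 and 129 RPKM, with a log2 ratio of 0.99. P4ha2, a subunit of the enzyme that hydroxylates collagen prolines, was at 3.42 and 6.50 RPKM. The lower gene was Fkbp10, a collagen chaperone that works with HSP47, at 25.6 RPKM in WT against 10.3 RPKM in T136A. Fkbp7 (2.08 and 1.35 RPKM) and the prolyl hydroxylase partner P3h4 (13.0 and 9.76 RPKM) came next at the lower end.

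Genes that cross-link or degrade matrix included 16 of 27 at or above 1 RPKM, with 1 at least 2-fold higher, 0 lower and a median log2 ratio of 0.19. The secreted protease Htra1 was at 8.97 RPKM in WT against 27.7 RPKM in T136A. Loxl2, a lysyl oxidase that cross-links type IV collagen, was at 1.28 and 3.06 RPKM, and the protease inhibitor Serpine2 at 2.25 and 4.15 RPKM. At the lower end stood Reck, a membrane-bound inhibitor of matrix proteases (4.31 and 1.90 RPKM), Loxl1 (2.06 and 0.742 RPKM) and the metalloprotease inhibitor Timp1 (41.6 and 24.7 RPKM).

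**Figure D4:**
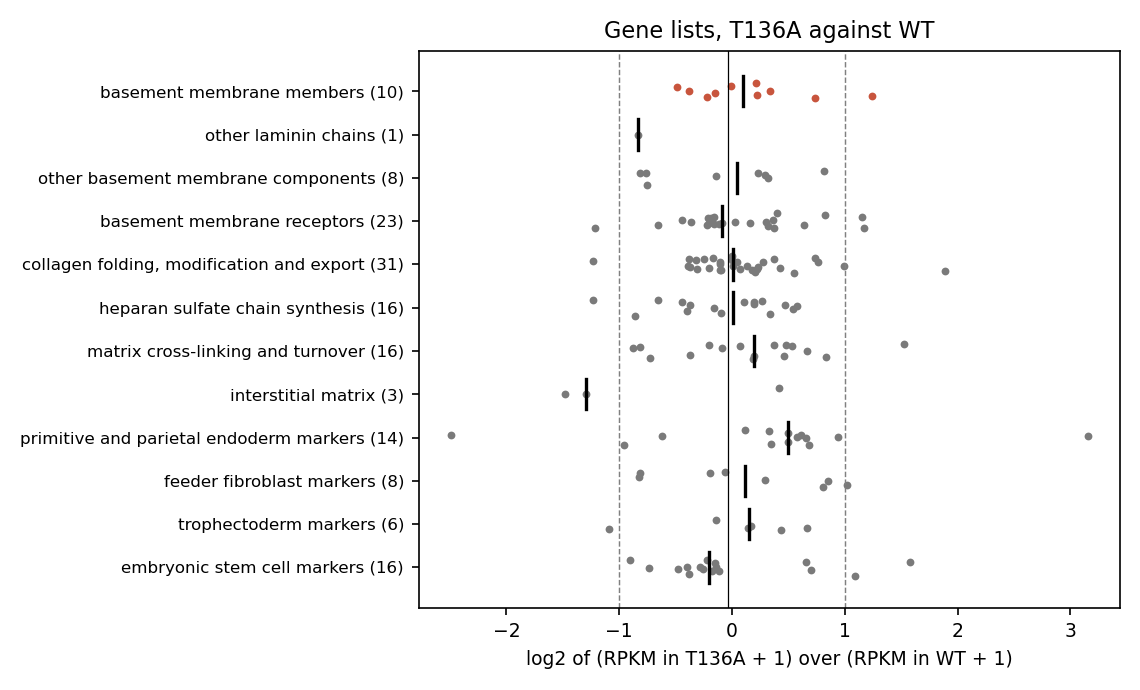
Log2 ratio (T136A over WT, 1 RPKM added) of every expressed gene, for the 10 basement membrane genes and for the gene lists set beside them; numbers in brackets count genes, short bars are medians, the thin line is the median of all genes and dashed lines mark 2-fold. The basement membrane genes spread to both sides, from -0.49 to 1.24.

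Markers of other cells that make these proteins were set beside the collagen difference. Of 27 markers of primitive and parietal endoderm, all 27 were found, 14 were expressed, of which 4 reached 1 RPKM in T136A alone (Gata6, Sox17, Cited1 and Pth1r) and 2 in WT alone (Fst and Lrp2). Among the 14, 1 was at least 2-fold higher on the log2 scale with 1 RPKM added (Rhox5, 16.5 and 155 RPKM) and 1 at least 2-fold lower (Fst, 8.91 and 0.757 RPKM). The median log2 ratio of the 14 was 0.50, against -0.03 for all expressed genes, and 11 were above 0, against 47.4%. The 4 that reached 1 RPKM in T136A alone are above 0 by that rule, and the 2 in WT alone below it. Over all 27, with no minimum, 22 had the higher value in T136A and the median log2 ratio was 0.17, against 0 for all genes. The share of all genes with the higher value in T136A was not computed without a minimum. More genes were above 0 in T136A (21242) than in WT (20233), so the 22 have no background beside them. The summed level of the list was 245 RPKM in WT against 294 RPKM in T136A, of which Apoe (196 and 101 RPKM) and Rhox5 made up most. The defining transcription factors were low, and each was higher in T136A: Gata6 at 0.805 and 1.68 RPKM, Gata4 at 1.11 and 1.68 RPKM, Sox17 at 0.551 and 1.38 RPKM and Sox7 at 0.571 and 0.741 RPKM. Counting intervals were not available for these transcription factors, so the counting error of their differences is not known. The receptor Pdgfra was at 0.125 and 0.266 RPKM, and the yolk sac gene Afp was the only listed marker at 0 in WT, with 0.0968 RPKM in T136A. Krt19 (3.23 and 7.12 RPKM) and Cited1 (0.261 and 1.02 RPKM) were the next highest ratios, and Lrp2 (1.68 and 0.745 RPKM) was among the lowest. The list thus held genes on both sides. In the library where Col4a1 and Col4a2 were higher, Gata6, Gata4, Sox17 and Sox7 were higher as well. Lower there were Apoe, Fst, Lrp2, Ttr (0.187 and 0.0892 RPKM) and the transcription factor Foxq1 (0.177 and 0.157 RPKM). The part of these markers in the collagen difference was not tested.

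For feeder fibroblasts, whose presence in the cultures is not stated, 16 of 20 markers were found, 8 reached 1 RPKM and 4 of those had a log2 ratio above 0, with a median of 0.12. The fibrillar collagens that define such cells were scarce, with Col1a1 at 0.470 RPKM in WT against 0.530 RPKM in T136A and Col1a2 at 0.0368 and 0.0525 RPKM; Col3a1 was not analysed here. The list summed to 40.2 RPKM in WT against 63.7 RPKM in T136A, most of it S100a6 (13.3 and 28.0 RPKM) and Vim (10.9 and 19.9 RPKM), which other cells also make. Thy1 was at 2.50 and 5.32 RPKM and Ccn2 at 3.03 and 1.27 RPKM. Markers listed at 0 were 4 in WT and 2 in T136A, and Prrx1 was at 0 in both. For trophectoderm, 6 of 14 markers found reached 1 RPKM, 4 of them above 0, with sums of 82.7 RPKM in WT against 55.7 RPKM in T136A; Tfap2c, at 57.7 and 26.5 RPKM, led the sum, and Cdx2 was at 0.0253 and 0.0774 RPKM. The part of these markers in the differences was not tested. The 16 embryonic stem cell markers all reached 1 RPKM, with a median log2 ratio of -0.20, Klf2 (156 and 82.9 RPKM) lowest and Utf1 (94.2 and 284 RPKM) highest.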

How the data were processed

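RNA-seq values of 2 libraries were used, 1 per genotype. The values deposited by the authors, 1 per Ensembl gene, were read as RPKM. The unit was settled from the values: times a library constant and the gene's GENCODE M21 union exon length, 89.9% (WT) and 90.0% (T136A) of positive values gave whole reads within 0.01, and 9 of the 10 members did. CASAVA 1.8 and mm9 are named without a role, per the submitters' processing notes; no source used here names the aligner or the counting rule, and coordinates are GRCm38, not mm9. Symbols matched 25696 identifiers; where a symbol was shared, the identifier with the larger summed value was kept, which dropped 9. Log2 ratios have 1 RPKM added, and folds are plain RPKM ratios. Counting intervals (95%) are exact binomial for folds and level ratios, exact Poisson for levels and exact conditional for ratios of folds; reads are not independent molecules, since no molecular identifiers are named. Of the 12320 genes at or above 1 RPKM, 87.4% had whole reads in both libraries. A laminin chain gene of the lists is not reported here. The members and the 12 gene lists were chosen with earlier results of these data known. Outside the members, genes named are Ahcy, the laminin and type IV collagen chains and defining markers. Up to 3 genes at each end of a list are named as well. Others were chosen after their values were seen: Nid2, Itgb1, Dag1, Afp, Pth1r, Prrx1, Cdx2, Foxq1 and Ttr. The steps were tested on simulated reads. Python 3.11.15, pandas 2.3.3 and scipy 1.17.1 were used. Alternatives were other added constants, scalings (TMM written out in Python), minimum levels and summed values for shared symbols.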

Additional observations from a re-analysis of the deposited data

How the results depend on the processing

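No paired analysis was possible because each genotype has 1 library, and no library could be left out. Of 500 values under other settings, 444 stayed within their limit: the counting interval for a level or ratio, the typical counting interval of a list's genes for its median, and 1.5 times for counts. Some of these could not move. WT levels and ratios within a library are unchanged where only T136A is rescaled. The median of the members is unchanged by any minimum, since all 10 genes pass. The 444 is therefore not a measure of robustness. The sign of 9 of the 10 members held in all settings run on them; Lama5 was the exception. With 0.1 RPKM added, the log2 ratio of Col4a1 was 1.43, and 723 genes of the series were at least 2-fold higher and 727 lower. Counts of higher genes then became 4 for endoderm markers and 2 each for collagen folding, cross-linking and feeder lists, and counts of lower genes 2 each for endoderm, cross-linking and feeder lists. With 5 RPKM added, Col4a1 was at 0.79, Col4a2 at 0.41 and the other laminin chains, of which only Lamb2 was expressed, at -0.50, with 101 genes of the series higher and 114 lower. Higher counts then fell to 0 for the 10 members, receptors and feeder markers, and lower counts to 0 for collagen folding and trophectoderm.

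Upper-quartile scaling moved the median of all expressed genes from -0.03 to 0.10 and gave 588 higher genes. The log2 ratios of all members but Col4a1 and Col4a2 rose beyond their limits, that of Lamc1 from -0.49 to -0.34. The medians became 0.24 for the members, 0.38 for other basement membrane components, 0.15 for collagen folding, 0.24 for heparan sulfate, -1.14 for interstitial matrix and -0.049 for stem cell markers. Higher counts became 2 for endoderm markers, and 0 trophectoderm markers were lower. The collagen folding list had 2 higher genes with this, with TMM and with the median log2 ratio set to 0, since Pdia6 lies at the 2-fold line. Quantile normalization moved the medians of interstitial matrix to -1.34 and stem cell markers to -0.28. A minimum of 5 RPKM gave 209 higher genes and medians of -0.45 for other components, 0.23 for receptors, 0.85 for feeder markers and -1.38 for interstitial matrix. A mean of at least 1 RPKM gave -0.14 for other components. With no minimum, medians were -0.0069 for other laminin chains, 0.17 for endoderm markers and 0.012 for interstitial matrix, which turned its direction, as unexpressed genes near 0 entered the list. No other type IV collagen gene reached 1 RPKM, so that list gave no value except without a minimum. Depth limits Col4a3, Col4a4, Lama2 and Lamc3 most, with 5 reads or fewer per library.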

Other observations

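Genes that build and trim heparan sulfate, the sugar chain carried by perlecan, agrin and syndecans, were measured alongside. Of 19 listed genes 16 reached 1 RPKM, with a median log2 ratio of 0.01, 0 at least 2-fold higher and 1 at least 2-fold lower. Sulf2, which removes sulfate groups from finished chains, was at 38.5 RPKM in WT against 15.8 RPKM in T136A. Hs6st1, which adds sulfate at the position that Sulf2 clears, was at 33.6 and 18.1 RPKM, and Extl2 at 5.93 and 3.41 RPKM. Of the 16, 8 had a log2 ratio above 0. The highest were Hs2st1 (4.23 and 6.78 RPKM), the epimerase Glce (3.12 and 4.98 RPKM) and the chain-elongating Ext1 (2.44 and 3.76 RPKM). 

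Interstitial matrix, the looser matrix of connective tissue, was nearly silent apart from glycoproteins. Of 24 genes found on a list of 27, only Fn1, Spp1 and Col5a1 reached 1 RPKM. Fibronectin, Fn1, was at 93.4 RPKM in WT against 32.9 RPKM in T136A, 2.84-fold lower (2.76 to 2.92), and osteopontin, Spp1, at 477 and 195 RPKM. Col5a1 was at 1.27 and 2.04 RPKM. Fibronectin was thus about as abundant as Sparc in WT and well below it in T136A. Its receptor chain Itga5 was lower there as well, and a link between these differences was not tested.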
